A study of Mus musculus with 4 samples.

Results

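Type 2 conventional dendritic cells (cDC2) were taken from 4 mouse single-cell RNA libraries by a gate on raw UMIs, the counts of distinct captured transcript molecules. A cell entered with at least 500 detected genes, at most 10% mitochondrial UMIs, at least 2 UMIs of Cd209a plus Ccl17 and at least 10 UMIs of H2-Aa plus H2-Ab1. It was left out above 1 UMI of Xcr1 plus Clec9a (cDC1 genes), 2 UMIs of Ccr7 plus Fscn1 (genes of migrating dendritic cells) or 4 UMIs of C1qa, C1qb and C1qc (macrophage complement genes), and with any UMI of the Cd3 genes or Cd79a. The gate held 661 of 35372 kept cells, that is 204 of the 2DG_aPDL1 library, 182 of aPDL1, 151 of 2DG and 124 of ctrl. Those genes chose the cells, so their levels are given as a description. The libraries come from a study of glycan targeting and checkpoint blockade in ovarian tumours, and each is labelled as lymph node. The treatments were 2-deoxy-D-glucose together with aPDL1 (2DG_aPDL1, called the combination here), aPDL1 alone, 2-deoxy-D-glucose alone (2DG, a glucose analogue) and control (ctrl). The series' design text speaks of young and aged mice, while the labels give no age, strain, tumour, dose or number of pooled animals for any library. Each treatment had 1 library, so no value has a replicate check, no test was made, and intervals cover counting error only.

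Conventional dendritic cells take up antigen, cut it into peptides and show these to T cells on MHC molecules. The cDC2 lineage is known for presenting peptides on class II to CD4 T cells, depends in part on the transcription factor Irf4, and is less given to cross-presentation on class I than cDC1. Its cells carry C-type lectins, receptors that bind sugars on glycoproteins, among them Cd209a of the DC-SIGN family and the galactose-type lectins Mgl2 and Clec10a. Ccl17 is a chemokine that draws cells bearing CCR4. In mm10 with GENCODE M21 annotation Cd209a lies on chromosome 8 at 3743397 to 3748984 on the minus strand, and Ccl17 on the same chromosome at 94810453 to 94812036 on the plus strand. Mgl2 (70130329 to 70137550) and Clec10a (70156197 to 70170834) are neighbours on the plus strand of chromosome 11. All 4 are annotated as protein coding.

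The kept cells numbered 9294 in the combination, 9044 with aPDL1, 7943 with 2DG and 9091 in ctrl, out of 8701 to 9948 barcodes per library. The libraries held 61859753 to 73885214 UMIs. The gated cells held 1746643 UMIs in the combination, 1787979 with aPDL1, 1629796 with 2DG and 1691176 in ctrl. Their median depth was 8076.5 UMIs per cell in the combination, 8797.5 with aPDL1, 10156 with 2DG and 13939 in ctrl, so ctrl cells were deepest. Between 74 and 81 barcodes of each library, counted before the cell filters, also occurred in another library, but none was in the gate of more than 1 library. Among T cells with at least 3 Cd3 UMIs, which should lack both selecting genes, 0.535% in the combination, 1.32% with aPDL1, 0.652% with 2DG and 0.471% in ctrl had 2 or more UMIs of Cd209a plus Ccl17, at median depths of 5991.5 to 6968 UMIs. These were 15 of 2802 cells in the combination, 35 of 2653 with aPDL1, 18 of 2761 with 2DG and 2 of 425 in ctrl. The ctrl interval was wide, at 0.057 to 1.69, so its place among the libraries is not read. The ctrl library stood apart in its neutrophil genes, and 12 gated ctrl cells held 20 or more UMIs of S100a8 plus S100a9, against 1 in the combination, 0 with aPDL1 and 1 with 2DG. Levels without the cells high in those genes are given below for cytokine, chemokine, lectin and hypoxia genes that they moved most.

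The gated cells made up 2.195% of kept cells in the combination (exact 95% interval 1.907 to 2.514), 2.012% with aPDL1 (1.733 to 2.323), 1.901% with 2DG (1.612 to 2.226) and 1.364% in ctrl (1.136 to 1.624). The interval of the ctrl share lay below those of the combination and aPDL1 and overlapped slightly with that of 2DG. With cells thinned to 3000 UMIs before the gate the intervals overlapped, at 1.866% in the combination (1.584 to 2.183), 1.898% with aPDL1 (1.605 to 2.229), 1.75% with 2DG (1.454 to 2.087) and 1.368% in ctrl (1.11 to 1.666). They also overlapped without cells of 2 or more UMIs of Fcgr1 plus Ly6c2, at 1.399% in the combination (1.17 to 1.659), 1.349% with aPDL1 (1.121 to 1.609), 1.372% with 2DG (1.128 to 1.653) and 1.21% in ctrl (0.9955 to 1.457). The ctrl share was still the lowest under both changes, and overlap of intervals does not show that shares are equal. Some other settings kept the ctrl interval below that of the combination. With at least 1000 detected genes it was 1.276 to 1.841 in ctrl and 1.996 to 2.637 in the combination. With Cd209a alone at 2 or more UMIs it was 0.504 to 0.8487 in ctrl and 1.706 to 2.284 in the combination. Set against cells that had 10 or more UMIs of H2-Aa plus H2-Ab1, the order turned, with 6.113% in the combination (5.324 to 6.98), 6.324% with aPDL1 (5.462 to 7.276), 5.632% with 2DG (4.79 to 6.573) and 8.196% in ctrl (6.863 to 9.693). Cells with 20 or more S100a8 plus S100a9 UMIs were common in ctrl, and leaving them out kept 5975 of its 9091 cells. The shares were then 2.23% in the combination (1.937 to 2.555), 2.063% with aPDL1 (1.777 to 2.382), 1.953% with 2DG (1.656 to 2.288) and 1.874% in ctrl (1.546 to 2.251), with overlapping intervals. The ctrl share was therefore lowest or highest according to the cells it was set against. Of cells with 2 or more UMIs of Cd209a plus Ccl17, which numbered 332 in the combination, 408 with aPDL1, 340 with 2DG and 326 in ctrl, the later criteria left the gated cells given above.

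Markers outside the rule were set beside gates for cDC1, migratory dendritic cells, C1q macrophages and Ly6c2 monocytes of the same libraries. Levels are UMIs per 1000000 UMIs of the gated cells of a library (CPM). Zbtb46, a transcription factor of conventional dendritic cells, was at 45.2 CPM in the combination, 113 with aPDL1, 117 with 2DG and 146 in ctrl, while C1q macrophages had 1.27 to 4.11 CPM and Ly6c2 monocytes 0.445 to 1.7 CPM. Flt3, the receptor for the dendritic cell growth factor FLT3L, was at 109 CPM in the combination, 91.2 with aPDL1, 69.95 with 2DG and 55.6 in ctrl, against 0.556 to 3.42 CPM in C1q macrophages and 8 to 17.9 CPM in Ly6c2 monocytes. Both genes were higher in the gated cells of every library than in those macrophages or monocytes. They were lower than in the other dendritic gates of the same library, where Zbtb46 ranged from 83.1 to 216 CPM in cDC1 and 181 to 253 CPM in migratory dendritic cells, and Flt3 from 217 to 261 CPM in cDC1 and 185 to 312 CPM in migratory dendritic cells. Irf4 was at 56.7 CPM in the combination, 101 with aPDL1, 88.3 with 2DG and 114 in ctrl, and its range was 4.48 to 19.4 CPM in cDC1 and 51 to 55 CPM in migratory dendritic cells. Dpp4, a surface peptidase, was at 185 CPM in the combination, 242 with aPDL1, 237 with 2DG and 215 in ctrl, against 166 to 243 CPM in cDC1, 301 to 410 CPM in migratory dendritic cells and 3.14 to 13.1 CPM in C1q macrophages. The macrophage genes were low, with 10.6 to 19 CPM of the engulfment receptor gene Mertk in the gated cells and 247 to 311 CPM in C1q macrophages, and 43 to 100 CPM of Apoe against 3485 to 4459 CPM. Clec4a4, a lectin of splenic cDC2, was nearly absent, at 1.72 CPM in the combination, 1.68 with aPDL1, 0 with 2DG and 1.18 in ctrl. Sirpa and Itgam, further cDC2 markers, were lower than in those macrophages and monocytes in every library. Sirpa was at 195 to 273 CPM, against 462 to 528 CPM in C1q macrophages and 314 to 379 CPM in Ly6c2 monocytes. Itgam was at 164 to 360 CPM, against 431 to 759 CPM and 350 to 944 CPM. Klf4 overlapped with both, at 149 to 261 CPM against 208 to 371 CPM and 191 to 270 CPM.

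Genes of monocytes were present in the gate as well. Lyz2, which encodes a lysozyme, was at 1373 CPM in the combination, 830.5 with aPDL1, 348 with 2DG and 222 in ctrl. Fcgr1, the high-affinity IgG receptor CD64, was at 101 CPM in the combination, 83.9 with aPDL1, 63.8 with 2DG and 37.8 in ctrl. The 11 monocyte markers summed to 4309 CPM in the combination, 2724 with aPDL1, 2005 with 2DG and 1565 in ctrl, against 13151 to 19258 CPM in Ly6c2 monocytes, and none of the 11 was at 0 in all libraries. Without cells of 2 or more UMIs of Fcgr1 plus Ly6c2 the log2 ratio of Lyz2 turned to -0.198 for 2DG over ctrl. The sum was highest in the combination and lowest in ctrl. The 8 neutrophil markers summed to 85.9 CPM in the combination, 44.7 with aPDL1, 79.2 with 2DG and 2523 in ctrl. T cell, B cell and mast cell markers summed to no more than 26.8, 8.59 and 0 CPM in any library. The 3 erythroid markers were at 229 CPM in the combination from a single cell, and at 0.559 to 1.84 CPM elsewhere. NK cell markers summed to 127 CPM in the combination, 6.71 with aPDL1, 35.6 with 2DG and 0.591 in ctrl. Macrophage markers summed to 427 CPM in the combination, 708 with aPDL1, 288 with 2DG and 1375 in ctrl, against 7610 to 11673 CPM in C1q macrophages. Zbtb46 and Flt3 were thus above, and the monocyte and macrophage sums below, their levels in Ly6c2 monocytes and C1q macrophages in every library. The direction of the sums is partly set by the gate rules. Ly6c2 and Csf1r are among the 11 monocyte markers and also chose the Ly6c2 monocyte gate. C1q macrophages were chosen by 10 or more C1q UMIs, where the cDC2 gate allowed at most 4.

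**Figure D1:**
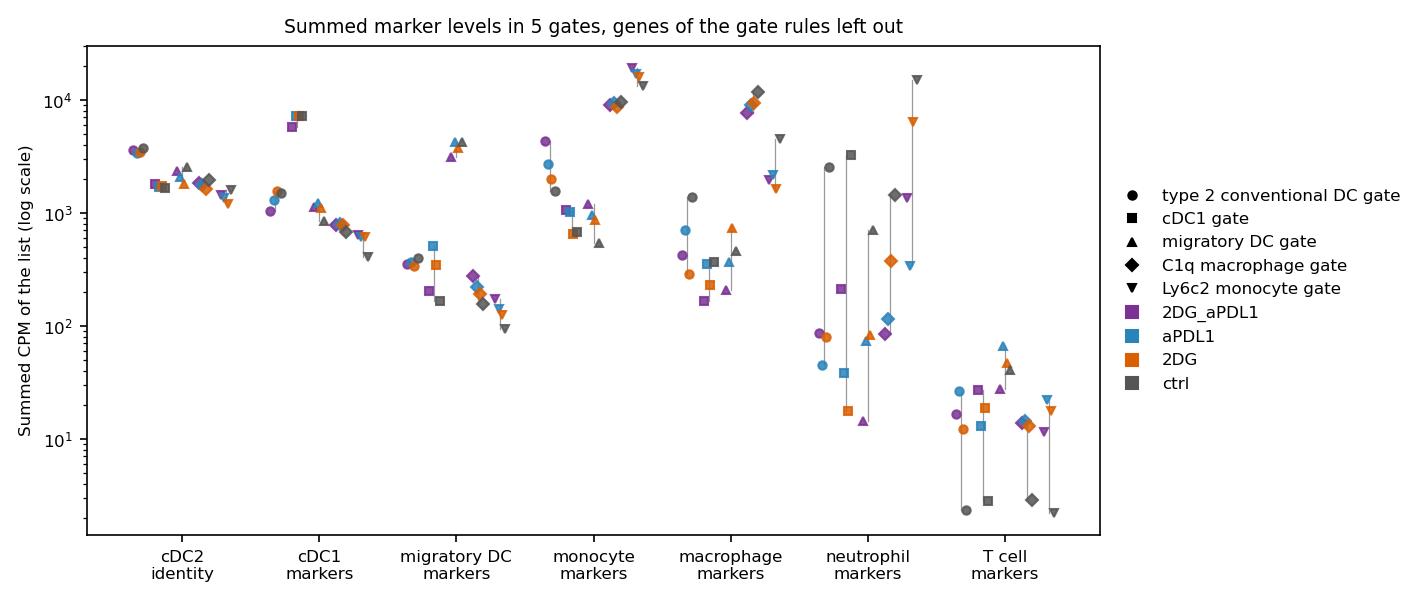
Summed CPM (log scale, UMIs per 1000000 UMIs of the gated cells) of 7 marker lists in 5 gates, with 1 point per library. In the cDC2 gate the cDC2 identity list lies between 3408 and 3739 CPM in the 4 libraries, while monocyte markers lie at 4309 CPM in the combination and 1565 CPM in ctrl. The close identity sums hide members that differ in opposite directions. Tnip3 is at 1372 CPM in the combination and 642 to 922 CPM elsewhere, and Mgl2 at 295 CPM and 555 to 846 CPM.

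The selecting genes split the gate in a different way in each library. Cells of the combination held a median of 6.5 Cd209a UMIs, those of aPDL1 3, those of 2DG 4 and those of ctrl 1. For Ccl17 the medians were 0 in the combination, 0 with aPDL1, 0 with 2DG and 8 in ctrl. Cd209a was found in 188 of 204 cells in the combination, 151 of 182 with aPDL1, 122 of 151 with 2DG and 71 of 124 in ctrl, whereas Ccl17 was found in 42 cells of the combination, 81 with aPDL1, 72 with 2DG and 114 in ctrl. In levels, Cd209a stood at 979.6 CPM in the combination, 534 with aPDL1, 492 with 2DG and 254 in ctrl. Ccl17 stood at 338 CPM in the combination, 889.8 with aPDL1, 836 with 2DG and 1327 in ctrl. The combination was highest for Cd209a and lowest for Ccl17, and ctrl the reverse. H2-Ab1, the class II beta chain gene of the rule, stood at 5014 CPM in the combination, 5634 with aPDL1, 5711 with 2DG and 5721 in ctrl.

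**Figure D2:**
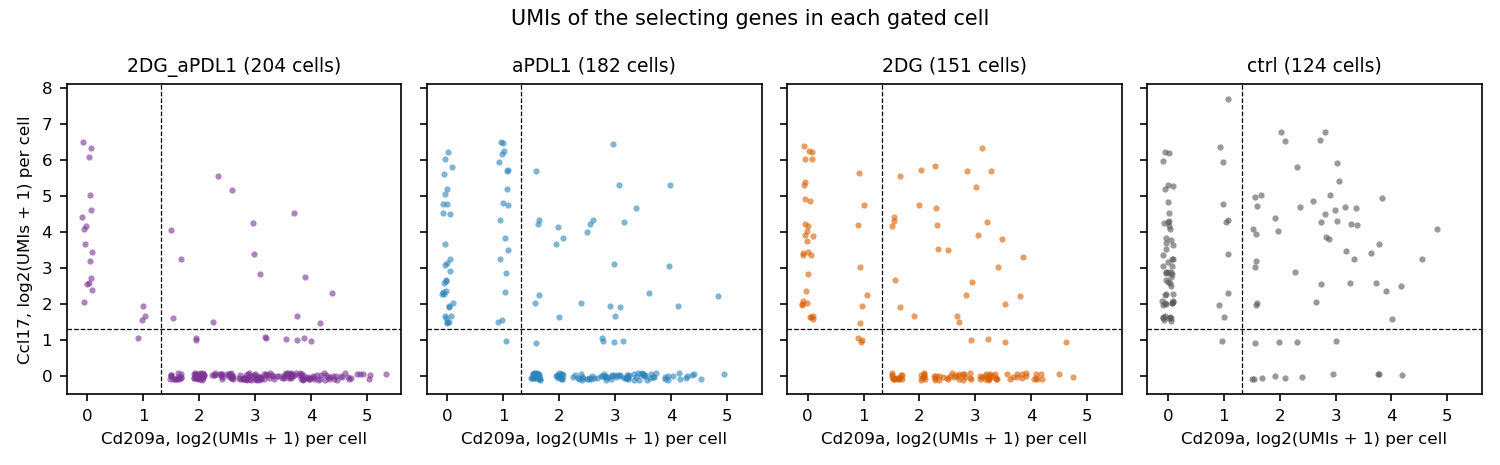
Cd209a UMIs (x axis, log2 of UMIs plus 1) and Ccl17 UMIs (y axis, same scale) of each gated cell, with 1 panel per library and dashed lines between 1 and 2 UMIs. Most combination cells lie along the Cd209a axis, with a median of 6.5 Cd209a UMIs and 0 Ccl17 UMIs, and most ctrl cells lie high on the Ccl17 axis, with medians of 1 and 8 UMIs.

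Each cell was placed in a Cd209a arm (2 or more Cd209a UMIs and at most 1 of Ccl17), a Ccl17 arm (the reverse) or in both, a split made after these values had been seen. The Cd209a arm held 170 of 204 cells in the combination, 83.3% (77.5 to 88.2), 106 of 182 with aPDL1, 58.2% (50.7 to 65.5), 83 of 151 with 2DG, 55.0% (46.7 to 63.1), and 14 of 124 in ctrl, 11.3% (6.31 to 18.2). The Ccl17 arm held 19 cells of the combination, 9.31%, 49 with aPDL1, 26.9%, 36 with 2DG, 23.8%, and 63 in ctrl, 50.8%. Cells with 2 or more UMIs of each gene made up 6.86% in the combination, 14.3% with aPDL1, 19.2% with 2DG and 37.1% in ctrl. With every cell thinned to 3000 UMIs before the gate, the Cd209a arm held 84.3% in the combination, 45.9% with aPDL1, 46.3% with 2DG and 10.3% in ctrl, and the Ccl17 arm 11.8% in the combination, 45.9% with aPDL1, 43.0% with 2DG and 78.4% in ctrl. The order of the combination and ctrl was thus the same at equal depth.

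**Figure D3:**
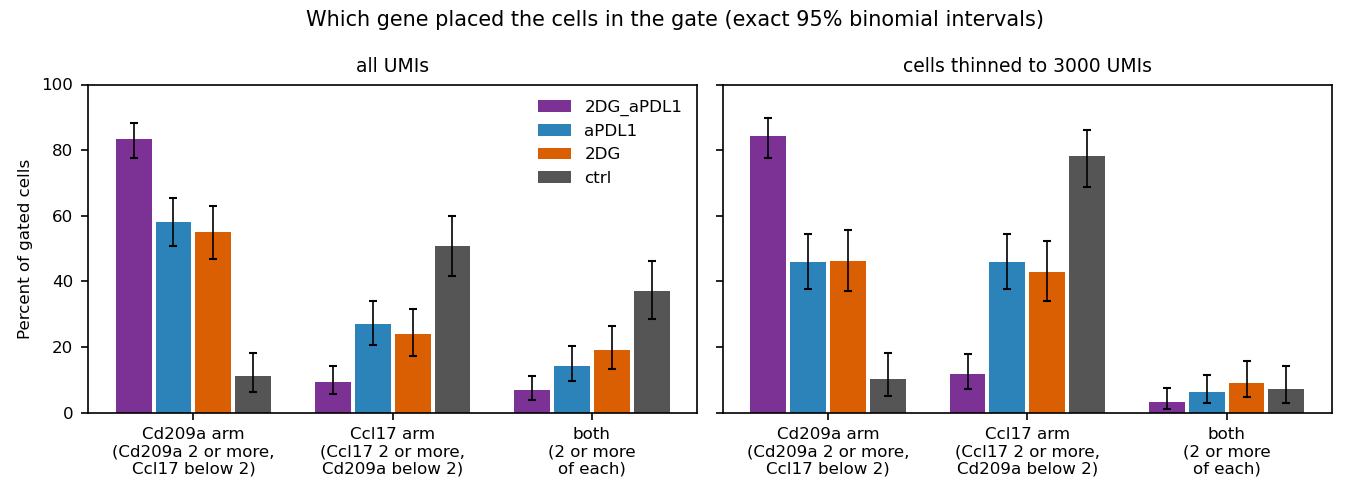
Percent of gated cells (y axis) in the Cd209a arm, the Ccl17 arm or both, by library, at full depth and with each cell thinned to 3000 UMIs, with exact 95% intervals that cover counting error only. The Cd209a arm holds 83.3% of the combination cells, 58.2% with aPDL1, 55.0% with 2DG and 11.3% of the ctrl cells at full depth.

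Cells lay on both sides of the threshold on Cd209a plus Ccl17. Among cells that met every other criterion, Mgl2 was at 154 CPM in the 15 combination cells with 2 UMIs and 119 CPM in the 51 with 1 UMI, and with aPDL1 at 244 CPM in 27 cells with 2 UMIs and 148 CPM in 51 cells with 1 UMI. With 2DG, Mgl2 was at 502 CPM in 21 cells with 2 UMIs and 306 CPM in 31 cells with 1 UMI, and in ctrl at 205 CPM in 12 cells and 135 CPM in 28 cells. Lyz2 in the same cells was at 3315 CPM inside and 2007 CPM outside in the combination, 1085 CPM inside and 2174 CPM outside with aPDL1, 564 CPM inside and 879 CPM outside with 2DG, and 721 CPM inside and 1689 CPM outside in ctrl.

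The arms differed in genes that the rule did not use. Mgl2 was lower in the Cd209a arm than in the Ccl17 arm in all 4 libraries, with log2 ratios of -2.72 in the combination, -2.27 with aPDL1, -2.24 with 2DG and -1.24 in ctrl. Clec10a, its neighbour in the genome, went the other way, with 2.14 in the combination, 1.03 with aPDL1, 3.14 with 2DG and 0.975 in ctrl. The surface glycoprotein gene Cd7 was higher in the Cd209a arm, by 1.2 in the combination, 4.27 with aPDL1, 6.27 with 2DG and 3.55 in ctrl, and Flt3 by 0.478 in the combination, 2.44 with aPDL1, 1.5 with 2DG and 1.35 in ctrl. Cd7 was at only 4.14 CPM in the whole ctrl gate, so its ctrl ratio rests on few UMIs. With 2DG its Ccl17-arm count lay at the floor, so the sizes of these 2 ratios are not read. Id2, a transcriptional inhibitor, was lower in the Cd209a arm, at -0.499 in the combination, -2.64 with aPDL1, -2.57 with 2DG and -1.07 in ctrl. Lymphotoxin beta (Ltb) was lower too, at -2.22 in the combination, -2.28 with aPDL1, -2.13 with 2DG and -0.219 in ctrl. Plet1, a surface protein gene, was at 2.15 CPM in the combination, 5.299 with aPDL1, 6.32 with 2DG and 152 in ctrl in the Cd209a arm. In the Ccl17 arm it was at 266 CPM in the combination, 259.5 with aPDL1, 426 with 2DG and 250.4 in ctrl. Ctrl was the high library of the Cd209a arm, which there rests on 14 cells with 196974 UMIs.

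Lyz2 did not follow the arms in a fixed direction, with log2 ratios of 4.48 in the combination, 0.451 with aPDL1, -0.763 with 2DG and -1.64 in ctrl. Ly6c2, a monocyte surface antigen gene, was higher in the Cd209a arm by 0.664 in the combination, 1.7 with aPDL1 and 2.73 with 2DG. Its ctrl ratio was -2.13, but only 3 of 124 ctrl cells held a Ly6c2 UMI, too few to read a direction. Cells were also read at an equal depth of 3000 UMIs, which left out 5 cells of the combination, 1 with aPDL1, 4 with 2DG and 15 in ctrl. Mgl2 was then found in 23.6% of cells in the combination, 42% with aPDL1, 49.7% with 2DG and 67.9% in ctrl, against 28.9% in the combination, 49.5% with aPDL1, 58.9% with 2DG and 79.8% in ctrl at full depth. Clec10a was found in 46.2% of thinned cells in the combination, 40.9% with aPDL1, 32.7% with 2DG and 18.3% in ctrl, against 62.7% in the combination, 63.2% with aPDL1, 53% with 2DG and 33.9% in ctrl at full depth. In levels Mgl2 stood at 295 CPM in the combination, 555 with aPDL1, 846 with 2DG and 796 in ctrl. Clec10a stood at 317 CPM in the combination, 296 with aPDL1, 193 with 2DG and 88.1 in ctrl. By level and by share at equal depth the combination was lowest for Mgl2 and highest for Clec10a. For Mgl2 the share put ctrl above 2DG and the level put 2DG above ctrl, so no order is read from that pair.

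Genes that stood out over the other kept cells were taken by the lowest ratio among the 4 libraries, as a description of cells chosen by their RNA. The first by this ratio was Gfra2, a receptor subunit for neurturin, at 57.2 CPM in the combination, 58.7 with aPDL1, 132 with 2DG and 112 in ctrl, against 1.94 CPM in the combination, 3.73 with aPDL1, 4.62 with 2DG and 2.29 in ctrl among other kept cells. Kmo, which encodes kynurenine 3-monooxygenase, was at 308 CPM in the combination, 358 with aPDL1, 380.4 with 2DG and 160.2 in ctrl, and its range in C1q macrophages was 4.57 to 12.6 CPM. The remainder were Ctnnd2, Ddr1, Clec10a, Mgl2, Slc30a4, Rtn1, Tnip3, Plet1, Zfp366, Nectin1, H2-Oa, Fgfr1 and Ccnd1. Rtn1, which encodes an endoplasmic reticulum protein, was at 95.6 CPM in the combination, 184 with aPDL1, 218 with 2DG and 372 in ctrl, lowest in the combination. Tnip3, whose product inhibits NF-kB signalling, was at 1372 CPM in the combination, 642 with aPDL1, 668 with 2DG and 922 in ctrl, highest in the combination. Zfp366, which encodes the dendritic cell protein DC-SCRIPT, was at 165 CPM in the combination, 215 with aPDL1, 220.3 with 2DG and 91.1 in ctrl.

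Class II genes had medians near 0 in the pairs of libraries, with single members that differed in both directions. Of 10 compared genes of class II presentation, 1 passed 1.5-fold upward and 0 downward for 2DG over ctrl, with a median log2 ratio of 0.02. Over all genes compared in that pair, 9.75% were at least 1.5-fold higher and 12.4% at least 1.5-fold lower, with a median of 0.02. A gene entered a pair where either library had 50 or more of its UMIs, and ratios were taken on UMIs plus 0.5 scaled by total UMIs. For the combination over aPDL1 the class II list gave 0 higher and 3 lower with a median of -0.0982, where 7.02% of all genes were higher and 10.3% lower with a median of -0.07. For aPDL1 over ctrl it gave 1 higher and 1 lower with a median of -0.06, where 13% of all genes were higher and 13.9% lower with a median of 0.05. For the combination over 2DG it gave 0 higher and 2 lower with a median of -0.17, where 9.45% of all genes were higher and 10.7% lower with a median of -0.04. Each library serves in 2 of the 4 pairs, so the pairs are not independent. The shares of all genes given here are also the background for the list counts below.

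Within the class II list H2-DMb2, a chain of the peptide-loading molecule H2-DM, was at 112 CPM in the combination, 174 with aPDL1, 250.3 with 2DG and 335 in ctrl, lowest in the combination. H2-Oa, a chain of the H2-O molecule that restrains H2-DM, was at 58.4 CPM in the combination, 96.2 with aPDL1, 130.1 with 2DG and 138 in ctrl, in the same order. H2-DMb1, the other beta chain of H2-DM, was at 444 CPM in the combination, 394 with aPDL1, 389.6 with 2DG and 238 in ctrl and so ran the other way, with ctrl lowest. Ciita, the transactivator of class II genes, was at 383 CPM in the combination, 611 with aPDL1, 572 with 2DG and 439 in ctrl. Ifi30, a thiol reductase of the antigen-processing pathway, was at 1268 CPM in the combination, 1190 with aPDL1, 1209 with 2DG and 824 in ctrl. H2-Ob, the partner chain of H2-Oa, was at 54.96 CPM in the combination, 59.8 with aPDL1, 52.1 with 2DG and 75.1 in ctrl.

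Most compared genes of the type I interferon response were higher with 2DG and with aPDL1 than in ctrl, and many were higher again in the combination. Of the compared genes of the list, 20 of 23 were at least 1.5-fold higher for 2DG over ctrl (median log2 ratio 1.02) and 20 of 24 for aPDL1 over ctrl (0.945), with 1 lower in each. For the combination over aPDL1 12 of 26 were higher and 0 lower (median 0.55), and for the combination over 2DG 12 of 26 were higher and 1 lower (median 0.53). These shares lie above the share of all genes past 1.5-fold upward in each pair, which is 7.02% to 13%. Beside them, monocyte markers had medians of 0.52 for 2DG over ctrl, 0.64 for the combination over aPDL1, 0.82 for aPDL1 over ctrl and 0.81 for the combination over 2DG, and their part in the result was not tested. When cells of 2 or more UMIs of Fcgr1 plus Ly6c2 were left out, the monocyte median for 2DG over ctrl was -0.367.

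Irf7, a transcription factor of the interferon response, was at 101 CPM in the combination, 56.5 with aPDL1, 56.5 with 2DG and 14.2 in ctrl. The combination was highest and ctrl lowest, and the log2 ratio of 2DG over ctrl was 1.97 (1.33 to 2.71) with its 95% counting interval. Isg15, a ubiquitin-like protein gene, was at 246 CPM in the combination, 111 with aPDL1, 152 with 2DG and 98.2 in ctrl. The combination lay above aPDL1 by 1.14 (0.9 to 1.395) on the log2 scale, while the interval of aPDL1 over ctrl held 0, at 0.18 (-0.12 to 0.49). Zbp1, a sensor of nucleic acids, was at 227 CPM in the combination, 154 with aPDL1, 122 with 2DG and 47.3 in ctrl, in the order ctrl, 2DG, aPDL1, combination from the lowest.

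Oas2, an enzyme of the oligoadenylate pathway, was at 58.4 CPM in the combination, 41.95 with aPDL1, 38.04 with 2DG and 10.6 in ctrl. Its relative Oas3 was at 58.4 CPM in the combination, 34.7 with aPDL1, 25.2 with 2DG and 11.8 in ctrl. Ifi204, of a family of DNA sensors, was at 274 CPM in the combination, 142 with aPDL1, 107 with 2DG and 64.5 in ctrl. These genes shared a low ctrl value, and Oas3 and Ifi204 a high combination value. Ifih1, the RNA sensor MDA5, was highest with 2DG, at 116 CPM in the combination, 106 with aPDL1, 184 with 2DG and 70.96 in ctrl. Rsad2, the antiviral protein viperin, was the member lower in every treated library, at 57.2 CPM in the combination, 39.1 with aPDL1, 65.04 with 2DG and 128 in ctrl, but 49.8% of its ctrl UMIs lay in a single cell.

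Within the Cd209a arm the type I list had medians of 1.03 for 2DG over ctrl, 0.59 for the combination over aPDL1, 0.946 for aPDL1 over ctrl and 0.23 for the combination over 2DG, where all genes of that arm had medians of -0.06 to 0.06. Within the Ccl17 arm they were 0.21 for 2DG over ctrl, -0.38 for the combination over aPDL1, 0.71 for aPDL1 over ctrl and 0.19 for the combination over 2DG, with all genes at -0.10 to -0.02. The median of the combination over aPDL1 thus had opposite signs in the arms. The difference between the arms was not tested. The ratios over ctrl in the Cd209a arm rest on 14 ctrl cells with 196974 UMIs. Irf7 was at 121 CPM in the combination, 80.5 with aPDL1, 102 with 2DG and 25.4 in ctrl in the Cd209a arm, where the ctrl count was low. Among Ccl17-arm cells, where its counts were low, it was at 20.9 CPM in the combination, 25.4 with aPDL1, 2.505 with 2DG and 13.04 in ctrl. Zbp1 was at 247 CPM in the combination, 165 with aPDL1, 162 with 2DG and 66 in ctrl in the Cd209a arm. In cells of the Ccl17 arm it was at 125 CPM in the combination, 144 with aPDL1, 85.2 with 2DG and 49.6 in ctrl.

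The promoters of the interferon genes were read for the letters that interferon regulatory factors bind, GAAANNGAA on either strand, in 250 bases before and 50 after each start in RefSeq GRCm38.p6. Of the 22 genes of the type I list with a promoter there, out of 28 listed, 13 held a match, and of 16 interferon gamma genes with a promoter, out of 22 listed, 13 did. Over all genes 9.76% held it, and over all 32851 promoters 8.56%. A match is a description of the letters and not a shown binding site. The promoters of Ifit2, Oasl1, Cd209a and Ccl17 held 0 matches. The promoters of Isg15 (chr4:156200769-156201068, minus strand), Ifit3 (chr19:34583279-34583578, plus strand) and Gbp2 (chr3:142620413-142620712, plus strand) are shown because they hold 3, 3 and 1 matches to GAAANNGAA or its reverse complement, which stand in capitals, overlapping in Isg15.
Isg15: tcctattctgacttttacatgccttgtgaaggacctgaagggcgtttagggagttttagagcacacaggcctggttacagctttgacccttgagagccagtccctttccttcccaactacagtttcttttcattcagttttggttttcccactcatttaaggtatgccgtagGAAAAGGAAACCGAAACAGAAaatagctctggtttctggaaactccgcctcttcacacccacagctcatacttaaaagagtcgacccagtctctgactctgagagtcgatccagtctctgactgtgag
Ifit3: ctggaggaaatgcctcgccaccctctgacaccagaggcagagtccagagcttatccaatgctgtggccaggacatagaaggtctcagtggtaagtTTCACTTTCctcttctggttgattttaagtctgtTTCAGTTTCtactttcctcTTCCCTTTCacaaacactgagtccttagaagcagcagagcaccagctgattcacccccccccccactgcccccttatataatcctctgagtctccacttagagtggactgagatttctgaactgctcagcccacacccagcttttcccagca
Gbp2: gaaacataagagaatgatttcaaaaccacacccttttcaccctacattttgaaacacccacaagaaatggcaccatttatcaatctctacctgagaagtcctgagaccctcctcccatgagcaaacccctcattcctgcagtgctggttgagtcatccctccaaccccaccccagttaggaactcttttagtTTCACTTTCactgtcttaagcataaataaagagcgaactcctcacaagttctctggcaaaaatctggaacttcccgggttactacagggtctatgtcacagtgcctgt
The genes of these promoters had the following levels. Isg15 is given above. Ifit3, an interferon-induced RNA-binding protein gene, was at 29.2 CPM in the combination, 15.1 with aPDL1, 22.7 with 2DG and 11.2 in ctrl. Gbp2, a guanylate-binding protein gene, was at 319 CPM in the combination, 256 with aPDL1, 207 with 2DG and 144 in ctrl.

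Genes that respond to interferon gamma lay lower in ctrl than with either single agent, while the combination and the single treatments lay closer together. For 2DG over ctrl 11 of 18 compared genes were at least 1.5-fold higher and 1 lower (median log2 ratio 0.88), and for aPDL1 over ctrl 15 higher and 1 lower of 18 (median 1.04). For the combination over aPDL1 2 of 17 were higher and 2 lower (median 0.17), and for the combination over 2DG 4 were higher and 0 lower (median 0.27). Over the pairs 7.02% to 13% of all genes were higher and 10.3% to 13.9% lower. Irf1, a transcription factor induced by interferon gamma, was at 435 CPM in the combination, 444 with aPDL1, 385 with 2DG and 166 in ctrl. Its ratio was 1.21 (1.01 to 1.42) for 2DG over ctrl and 1.42 (1.22 to 1.62) for aPDL1 over ctrl, while the interval of the combination over aPDL1 held 0, at -0.03 (-0.17 to 0.12).

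Socs1, a feedback inhibitor of cytokine signalling, was at 45.8 CPM in the combination, 54.8 with aPDL1, 39.9 with 2DG and 7.096 in ctrl. Igtp, an immunity-related GTPase, was at 97.3 CPM in the combination, 73.3 with aPDL1, 79.8 with 2DG and 20.7 in ctrl. Both had their lowest level in ctrl and lay close together in the treated libraries. Gbp5 was at 164 CPM in the combination, 101 with aPDL1, 95.1 with 2DG and 36.7 in ctrl, and there the combination stood above the others. Irgm2 was at 29.2 CPM in the combination, 45.9 with aPDL1, 33.8 with 2DG and 22.5 in ctrl. Irgm1 was at 76.7 CPM in the combination, 48.7 with aPDL1, 54.6 with 2DG and 39.03 in ctrl, both GTPases of the same pathway with opposite ratios between the combination and aPDL1. Iigp1, a further immunity-related GTPase, was at 118 CPM in the combination, 105 with aPDL1, 137 with 2DG and 37.2 in ctrl. Nos2, the inducible nitric oxide synthase, was lower with 2DG and aPDL1 than in ctrl, at 18.3 CPM in the combination, 7.83 with aPDL1, 1.23 with 2DG and 40.8 in ctrl, with 37.7% of its ctrl UMIs in a single cell.

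In the Cd209a arm the interferon gamma medians were 1.19 for 2DG over ctrl, 0.39 for the combination over aPDL1, 1.42 for aPDL1 over ctrl and 0.27 for the combination over 2DG. Within the Ccl17 arm they were 0.59 for 2DG over ctrl, -0.67 for the combination over aPDL1, 1.04 for aPDL1 over ctrl and -0.16 for the combination over 2DG. Both treated-over-ctrl ratios were positive in either arm, and those of the Cd209a arm rest on 14 ctrl cells. Irf1 was at 494 CPM in the combination, 508 with aPDL1, 456 with 2DG and 188 in ctrl in the Cd209a arm. In the Ccl17 arm it was at 172 CPM in the combination, 277 with aPDL1, 293 with 2DG and 189 in ctrl, with aPDL1 and 2DG above the other libraries.

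Class I presentation, which serves CD8 T cells, had medians above those of all genes for 2DG and aPDL1 over ctrl. The list had medians of 0.48 for 2DG over ctrl (4 of 15 higher, 1 lower), 0.05 for the combination over aPDL1 (3 higher, 0 lower), 0.37 for aPDL1 over ctrl (4 higher, 1 lower) and 0.08 for the combination over 2DG (1 higher, 1 lower). Of all genes 7.02% to 13% were higher and 10.3% to 13.9% lower in the pairs. Nlrc5, the transactivator of class I genes, was at 162 CPM in the combination, 169.5 with aPDL1, 139 with 2DG and 60.9 in ctrl. Psmb10, a subunit of the immunoproteasome, was at 211 CPM in the combination, 204 with aPDL1, 199 with 2DG and 88.7 in ctrl. Ctrl was lowest for both, and the treated libraries differed little. Tap1, which moves peptides into the endoplasmic reticulum, was at 195 CPM in the combination, 214 with aPDL1, 204 with 2DG and 119 in ctrl. Its partner Tap2 was at 72.7 CPM in the combination, 44.7 with aPDL1, 52.1 with 2DG and 49.7 in ctrl. H2-T23, which encodes the nonclassical molecule Qa-1, was at 184 CPM in the combination, 55.4 with aPDL1, 72.4 with 2DG and 126 in ctrl, highest in the combination. H2-D1, a classical heavy chain, was at 1276 CPM in the combination, 844 with aPDL1, 866 with 2DG and 766 in ctrl. H2-Q7, a nonclassical one that resembles its neighbours closely enough to share reads, was at 110.5 CPM in the combination, 122 with aPDL1, 179.8 with 2DG and 161 in ctrl.

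Most inflammatory cytokine and chemokine genes were lower with 2DG or aPDL1 alone than in ctrl, and many were higher in the combination than with 2DG alone. Cytokines had a median of -1.41 for 2DG over ctrl (0 of 6 higher, 5 lower) and 1.05 for the combination over aPDL1 (3 of 5 higher, 1 lower). For aPDL1 over ctrl the median was -0.785 (1 of 6 higher, 4 lower), and for the combination over 2DG 1.43 (3 of 5 higher, 1 lower). Chemokines gave -1.68 for 2DG over ctrl (2 of 15 higher, 10 lower), 0.52 for the combination over aPDL1 (6 of 13 higher, 2 lower), -1.23 for aPDL1 over ctrl (3 of 15 higher, 9 lower) and 1.17 for the combination over 2DG (9 of 13 higher, 0 lower). The shares of all genes in the pairs were 7.02% to 13% higher and 10.3% to 13.9% lower. Without the cells of 20 or more S100a8 plus S100a9 UMIs the cytokine median of the combination over aPDL1 was 0.425. With cells taken by Cd209a alone, the cytokine median was -0.758 for 2DG over ctrl and the chemokine median -0.266 for aPDL1 over ctrl. Without cells of 2 or more UMIs of Fcgr1 plus Ly6c2 the combination over aPDL1 had a cytokine median of 0.338 and a chemokine median of -0.0615, the reverse of the whole gate for chemokines. Neutrophil markers, highest in ctrl as given above, were not tested for their part in these values.

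Il1b, the precursor of interleukin 1 beta, was at 1471 CPM in the combination, 627 with aPDL1, 455 with 2DG and 989 in ctrl. The combination was highest and 2DG lowest, with log2 ratios of 1.69 (1.57 to 1.81) for the combination over 2DG and -1.12 (-1.25 to -0.99) for 2DG over ctrl. At 3000 UMIs a cell Il1b was found in 71.4% of combination cells (64.5 to 77.5), 48.6% with aPDL1 (41.1 to 56.1), 44.9% with 2DG (36.7 to 53.3) and 57.8% in ctrl (48 to 67.2), against 78.4% in the combination, 64.3% with aPDL1, 60.3% with 2DG and 75.8% in ctrl at full depth. For the Cd209a arm Il1b was at 1553 CPM in the combination, 648 with aPDL1, 398 with 2DG and 1239 in ctrl. Among Ccl17-arm cells it was at 1492 CPM in the combination, 453 with aPDL1, 338 with 2DG and 1163 in ctrl. The order with the single treatments lowest was the same in both arms. Il1b was highest in the combination in other gates too. It was at 1190 CPM against 430 to 727 CPM in the other libraries in migratory dendritic cells. In C1q macrophages it was at 1331 CPM against 517 to 535 CPM, and in cDC1 at 429 CPM against 116 to 197 CPM. Osm, the cytokine oncostatin M, was at 246 CPM in the combination, 109 with aPDL1, 66.9 with 2DG and 126 in ctrl, again highest in the combination. Without the cells of high S100a8 plus S100a9 its ctrl level was 88.1 CPM, below the 109 CPM with aPDL1.

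Tnf, Il1a and, with all cells, Il15 were highest in ctrl. Tnf was at 19.5 CPM in the combination, 59.3 with aPDL1, 34.4 with 2DG and 112 in ctrl, lowest in the combination. Il1a was at 14.3 CPM in the combination, 16.8 with aPDL1, 6.14 with 2DG and 105 in ctrl, and without the cells of high S100a8 plus S100a9 at 2.47 CPM with 2DG and 83.4 in ctrl. Il15, which sustains NK and CD8 T cells, was at 30.3 CPM in the combination, 14.5 with aPDL1, 11.04 with 2DG and 37.8 in ctrl, but without the cells of high S100a8 plus S100a9 its ctrl level was 10.8 CPM. Tgfb1 was at 202 CPM in the combination, 248 with aPDL1, 178 with 2DG and 159 in ctrl, highest with aPDL1. Il12b, a subunit of interleukins 12 and 23, was at 0 UMIs in the combination, 1 with aPDL1, 0 with 2DG and 13 in ctrl, and Il6 at 22 UMIs in the combination, 7 with aPDL1, 3 with 2DG and 29 in ctrl, both too few for a comparison.

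Cxcl2, which draws neutrophils through CXCR2, was at 619 CPM in the combination, 237 with aPDL1, 97.6 with 2DG and 2039 in ctrl, and without the cells of high S100a8 plus S100a9 at 592 CPM in the combination, 237 with aPDL1, 71.7 with 2DG and 1138 in ctrl. Ctrl was above the combination and the single treatments below it, with and without those cells. In the Cd209a arm it was at 610 CPM in the combination, 136 with aPDL1, 15.2 with 2DG and 1868 in ctrl. In cells of the Ccl17 arm it was at 1007 CPM in the combination, 454 with aPDL1, 138 with 2DG and 2791 in ctrl. Cxcl3, a close relative, was at 40 UMIs in the combination, 6 with aPDL1, 0 with 2DG and 432 in ctrl. Cxcl1, another, was at 2 UMIs in the combination, 1 with aPDL1, 0 with 2DG and 72 in ctrl. Since both were at 0 with 2DG no fold is given against it, and setting them to a floor of 3 UMIs leaves the list's median where it was.

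Ccl4, which encodes a chemokine, was at 902 CPM in the combination, 181 with aPDL1, 349.7 with 2DG and 368 in ctrl. The combination was highest and lay above aPDL1 by 2.32 (2.15 to 2.497) on the log2 scale. Without the cells of high S100a8 plus S100a9 its ctrl level was 335 CPM, below the 345 CPM with 2DG. Ccl3, its relative, was at 111 CPM in the combination, 43.6 with aPDL1, 30.1 with 2DG and 299.8 in ctrl, and without the cells of high S100a8 plus S100a9 at 160 CPM in ctrl. Ccl2, which draws monocytes through CCR2, was at 127 CPM in the combination, 27.96 with aPDL1, 15.9 with 2DG and 187 in ctrl. Ccl7 was at 43.5 CPM in the combination, 11.2 with aPDL1, 0.614 with 2DG and 39.03 in ctrl, with 51.3% to 100% of its UMIs in a single cell of each library. Ccl22, which shares the receptor CCR4 with Ccl17, was at 34.4 CPM in the combination, 78.3 with aPDL1, 46.6 with 2DG and 184 in ctrl. Within the Cd209a arm, which in ctrl holds 14 cells, it was at 4.29 CPM in the combination, 19.1 with aPDL1, 2.53 with 2DG and 5.08 in ctrl. Within the Ccl17 arm, where it was higher in each library, it stood at 224 CPM in the combination, 168 with aPDL1, 97.7 with 2DG and 344 in ctrl. Ccl6 was at 169 CPM in the combination, 257 with aPDL1, 202 with 2DG and 646 in ctrl.

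The ligands of CXCR3, which draw activated T and NK cells, did not share the ctrl maximum. Cxcl9 was at 499 CPM in the combination, 561 with aPDL1, 390.2 with 2DG and 364 in ctrl, and without the cells of high S100a8 plus S100a9 its ctrl level was 413 CPM, above 2DG. Cxcl10 was at 417 CPM in the combination, 381 with aPDL1, 252 with 2DG and 128 in ctrl, with 33.2% of its ctrl UMIs in a single cell. In the Cd209a arm Cxcl9 was at 509.9 CPM in the combination, 279.8 with aPDL1, 159 with 2DG and 5.08 in ctrl. In the Ccl17 arm it was at 564 CPM in the combination, 1009 with aPDL1, 696 with 2DG and 588 in ctrl. Ctrl was lowest in the Cd209a arm, while in the Ccl17 arm the combination and ctrl both lay below the single treatments. The ctrl value of the Cd209a arm lies near the floor, since that arm holds 14 cells with 196974 UMIs. The combination has 19 cells in the Ccl17 arm. Ccl5, another chemokine gene, was at 144 CPM in the combination, 55.9 with aPDL1, 47.9 with 2DG and 20.1 in ctrl, against 2745 CPM in the combination, 1965 with aPDL1, 2262 with 2DG and 228 in ctrl among other kept cells, and a single cell held 26.5% to 34.0% of its UMIs in each library.

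**Figure D4:**
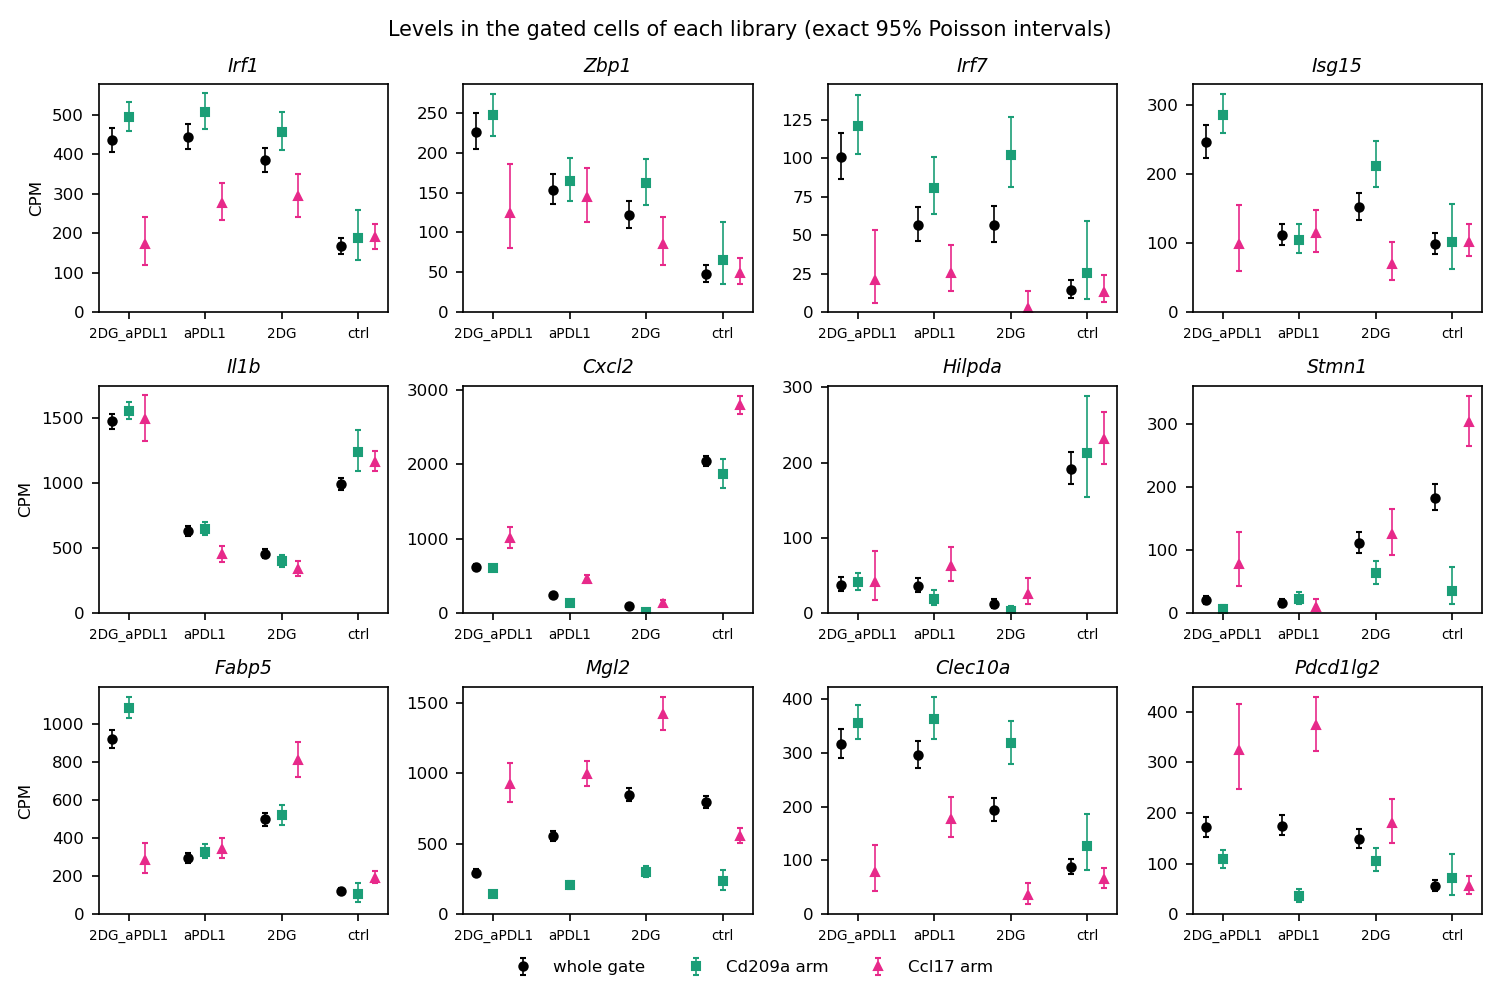
CPM (y axis, UMIs per 1000000) of 12 genes in the whole gate, the Cd209a arm and the Ccl17 arm, with 1 point per library and exact Poisson 95% intervals that cover counting error only. Irf1, Zbp1 and Irf7 are lowest in ctrl in the whole gate, while Cxcl2 and Hilpda are highest there, at 2039 and 192 CPM.

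Hypoxia response genes were lower with the single treatments than in ctrl. The list had medians of -1.65 for 2DG over ctrl (0 of 10 higher, 8 lower), -0.18 for the combination over aPDL1 (0 higher, 3 lower), -0.95 for aPDL1 over ctrl (0 higher, 7 lower) and 0.52 for the combination over 2DG (4 of 9 higher, 0 lower). Of all genes 7.02% to 13% were higher and 10.3% to 13.9% lower in the pairs. Hilpda, a lipid droplet protein gene, was at 37.8 CPM in the combination, 36.4 with aPDL1, 11.7 with 2DG and 192 in ctrl, and at 149 CPM in ctrl without the cells of high S100a8 plus S100a9. Egln3, a prolyl hydroxylase of the hypoxia pathway, was at 9.73 CPM in the combination, 29.6 with aPDL1, 18.4 with 2DG and 108 in ctrl. Ero1l, an oxidase of the endoplasmic reticulum, was at 32.1 CPM in the combination, 67.7 with aPDL1, 27 with 2DG and 165 in ctrl.

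Ctrl was highest for those genes and for Bnip3, P4ha1, Mxi1 and Higd1a, but not for Ndrg1 and Ddit4. Ndrg1, a stress-response gene, was lowest with 2DG, at 119.7 CPM in the combination, 82.8 with aPDL1, 28.2 with 2DG and 95.2 in ctrl, and the combination lay above 2DG by 2.07 (1.62 to 2.58). Bnip3, a mitophagy receptor, was at 41.2 CPM in the combination, 31.3 with aPDL1, 19.02 with 2DG and 82.2 in ctrl. Ddit4, an inhibitor of mTOR signalling, was at 58.97 CPM in the combination, 48.7 with aPDL1, 41.1 with 2DG and 40.8 in ctrl. P4ha1 was at 65.3 CPM in the combination, 87.8 with aPDL1, 80.4 with 2DG and 151 in ctrl. Mxi1 was at 26.3 CPM in the combination, 44.2 with aPDL1, 32.5 with 2DG and 96.4 in ctrl. Higd1a was at 95.04 CPM in the combination, 113 with aPDL1, 95.7 with 2DG and 125 in ctrl. Within the Cd209a arm, which in ctrl holds 14 cells, the medians of the list were -1.35 for 2DG over ctrl, 0.02 for the combination over aPDL1, -0.59 for aPDL1 over ctrl and 0.33 for the combination over 2DG. Among Ccl17-arm cells they were -1.3 for 2DG over ctrl, -0.36 for the combination over aPDL1, -1.32 for aPDL1 over ctrl and 0.22 for the combination over 2DG.

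2DG is taken up like glucose and blocks an early step of glycolysis, and it can also disturb the building of N-glycans. Of the glycolysis genes 1 of 17 was at least 1.5-fold higher and 5 lower for 2DG over ctrl (median -0.42), and 0 and 3 for the combination over aPDL1 (median -0.34). The medians were -0.17 for aPDL1 over ctrl (0 higher, 1 lower of 18) and 0.01 for the combination over 2DG (3 higher, 1 lower). Within the Cd209a arm they were -0.22 for 2DG over ctrl and 0.08 for the combination over aPDL1, and within the Ccl17 arm -0.28 for 2DG over ctrl and -0.36 for the combination over aPDL1.

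Pfkp, the platelet type of phosphofructokinase, was the member higher for 2DG over ctrl, at 955 CPM in the combination, 1059 with aPDL1, 1174 with 2DG and 733 in ctrl. Pfkfb3, which makes the activator of that enzyme, was at 93.9 CPM in the combination, 82.2 with aPDL1, 60.7 with 2DG and 119 in ctrl. Pdk1, which keeps pyruvate out of the mitochondria, was at 8.59 CPM in the combination, 24.6 with aPDL1, 22.7 with 2DG and 39.03 in ctrl. Gpi1, glucose phosphate isomerase, was at 166 CPM in the combination, 256 with aPDL1, 229 with 2DG and 294 in ctrl. Pgam1 was at 224 CPM in the combination, 199 with aPDL1, 218 with 2DG and 293 in ctrl. Gapdh was lowest in the combination, at 602 CPM in the combination, 906 with aPDL1, 790.3 with 2DG and 981 in ctrl. Gapdh and Pdk1 thus shared their lowest level in the combination, and ctrl was highest for both. Hk2, a hexokinase, was at 212 CPM in the combination, 275 with aPDL1, 211 with 2DG and 219 in ctrl. Hk3 was at 40.6 CPM in the combination, 29.6 with aPDL1, 19.6 with 2DG and 25.4 in ctrl. Hk1 was at 98.5 CPM in the combination, 76.6 with aPDL1, 63.8 with 2DG and 91.1 in ctrl. Hk3 was highest in the combination. Pfkfb4 was at 19.5 CPM in the combination, 35.8 with aPDL1, 32.5 with 2DG and 35.5 in ctrl. N-glycan synthesis genes had medians of 0.34 for 2DG over ctrl and -0.13 for the combination over aPDL1. In each of these pairs 1 of 13 was higher and 0 lower. Over all genes 9.75% were higher and 12.4% lower for 2DG over ctrl, and 7.02% and 10.3% for the combination over aPDL1. The number of N-glycan genes that were higher thus lay near the share of all genes. Oxidative phosphorylation genes had medians of 0.27 for 2DG over ctrl and -0.08 for the combination over aPDL1.

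**Figure D5:**
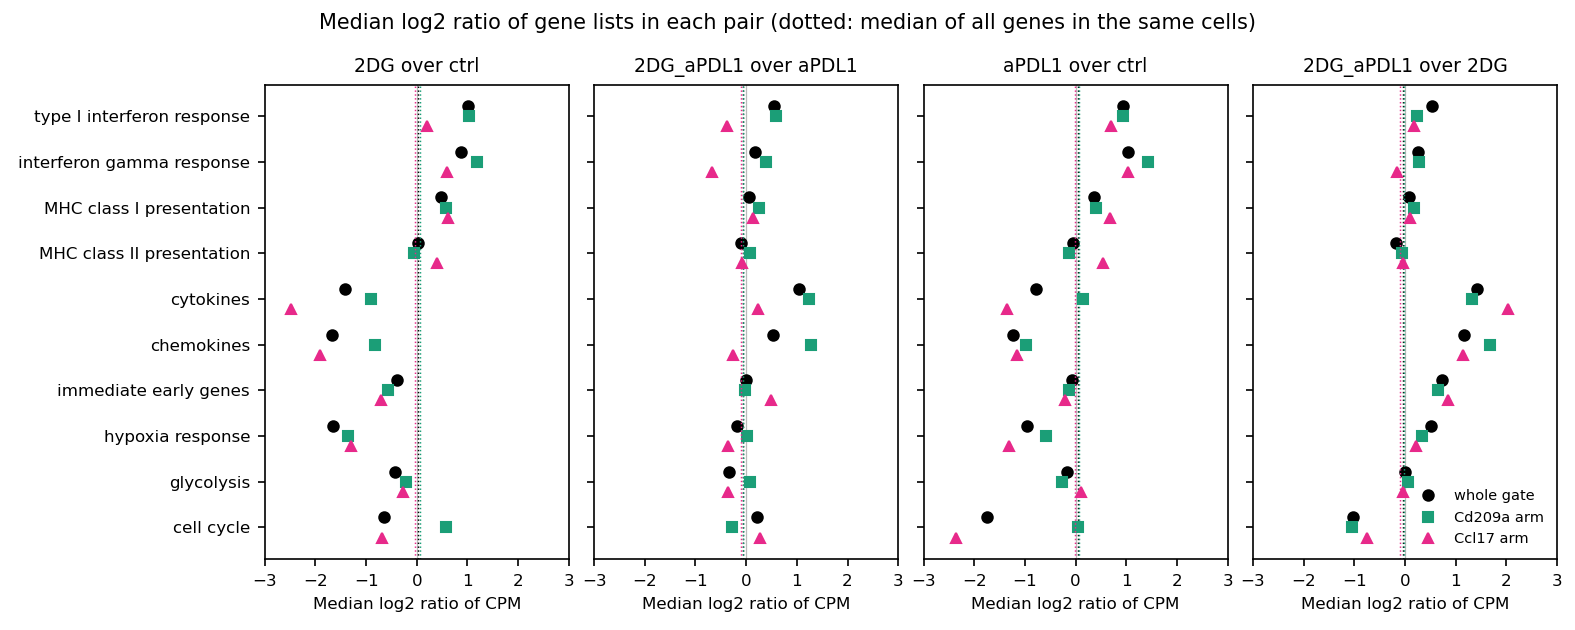
Median log2 ratio (x axis) of 10 gene lists in 4 pairs of libraries, for the whole gate, the Cd209a arm and the Ccl17 arm, with dotted lines at the medians of all genes compared. The type I interferon list lies at 1.02 for 2DG over ctrl in the whole gate, and the chemokine list at -1.68 for that pair and 1.17 for the combination over 2DG.

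Cell cycle genes were lower in the libraries that had received aPDL1. The list had medians of -1.74 for aPDL1 over ctrl (13 of 14 at least 1.5-fold lower, 0 higher) and -1.03 for the combination over 2DG (7 of 10 lower, 0 higher). For 2DG over ctrl it was -0.64 (7 of 14 lower, 0 higher), and for the combination over aPDL1 0.22 (1 of 5 higher, 0 lower). Over the pairs 10.3% to 13.9% of all genes were lower and 7.02% to 13% higher. Stmn1, which regulates microtubules, was at 20.04 CPM in the combination, 15.7 with aPDL1, 112 with 2DG and 183 in ctrl, and was found in 9 cells in the combination, 8 with aPDL1, 27 with 2DG and 37 in ctrl. Mki67, a marker of cycling cells, was at 64.1 CPM in the combination, 31.3 with aPDL1, 80.4 with 2DG and 189.8 in ctrl. Top2a, a topoisomerase of dividing cells, was at 28.1 CPM in the combination, 21.8 with aPDL1, 76.7 with 2DG and 153 in ctrl. The libraries without aPDL1 were the high ones for these 3 genes.

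At 3000 UMIs a cell Top2a was found in 2.51% of combination cells (0.821 to 5.77), 2.21% with aPDL1 (0.605 to 5.56), 7.48% with 2DG (3.79 to 13) and 17.4% in ctrl (10.8 to 25.9), against 4.41% in the combination, 7.14% with aPDL1, 12.6% with 2DG and 23.4% in ctrl at full depth. Cenpf, of the kinetochore, was at 9.16 CPM in the combination, 1.68 with aPDL1, 9.82 with 2DG and 54.4 in ctrl. Ube2c, of the anaphase machinery, was at 6.87 CPM in the combination, 6.15 with aPDL1, 17.8 with 2DG and 53.8 in ctrl. Mcm6, of the replicative helicase, was at 11.4 CPM in the combination, 21.2 with aPDL1, 46.02 with 2DG and 49.1 in ctrl. Its partner Mcm3 was at 15.5 CPM in the combination, 18.5 with aPDL1, 47.9 with 2DG and 46.1 in ctrl. Mcm4 was at 36.1 CPM in the combination, 31.9 with aPDL1, 42.95 with 2DG and 38.4 in ctrl, where the libraries lay close. Mcm6 and Mcm3 were higher without aPDL1. Tubb5 was at 172 CPM in the combination, 243 with aPDL1, 318 with 2DG and 452 in ctrl. Hmgb2 was at 168 CPM in the combination, 128 with aPDL1, 322 with 2DG and 550.5 in ctrl. Pcna, the sliding clamp, was at 61.8 CPM in the combination, 53.1 with aPDL1, 76.7 with 2DG and 110 in ctrl.

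The cell cycle genes differed between the arms. Stmn1 was at 6.44 CPM in the combination, 22.2 with aPDL1, 63.2 with 2DG and 35.5 in ctrl in the Cd209a arm. In cells of the Ccl17 arm it was at 78.3 CPM in the combination, 9.75 with aPDL1, 125 with 2DG and 303 in ctrl. Mki67 was at 29.3 CPM in the combination, 37.1 with aPDL1, 78.4 with 2DG and 10.2 in ctrl in the Cd209a arm. Within the Ccl17 arm it was at 136 CPM in the combination, 23.4 with aPDL1, 62.6 with 2DG and 288 in ctrl. The ctrl levels were thus high in the Ccl17 arm and not in the Cd209a arm, which holds 14 ctrl cells. Within the Cd209a arm the list's median for aPDL1 over ctrl was 0.05, and within the Ccl17 arm -2.36. With cells taken by Cd209a alone, Stmn1 had a log2 ratio of 0.205 for 2DG over ctrl, the reverse of the whole gate. The aPDL1 over ctrl median was -2.55 without cells of 2 or more UMIs of Fcgr1 plus Ly6c2.

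Cd274, which encodes PD-L1, differed little, at 504 CPM in the combination, 518 with aPDL1, 439.9 with 2DG and 443 in ctrl, with log2 ratios of -0.01 for 2DG over ctrl, -0.04 for the combination over aPDL1, 0.23 for aPDL1 over ctrl and 0.196 for the combination over 2DG. Pdcd1lg2, which encodes the second ligand of PD-1, was lowest in ctrl, at 172 CPM in the combination, 174 with aPDL1, 148 with 2DG and 55.6 in ctrl, and its ratio was 1.41 (1.07 to 1.78) for 2DG over ctrl and 1.65 (1.31 to 1.999) for aPDL1 over ctrl. Within the Ccl17 arm it was at 324 CPM in the combination, 373 with aPDL1, 180.4 with 2DG and 56.1 in ctrl. In the Cd209a arm it was at 109 CPM in the combination, 36.03 with aPDL1, 106 with 2DG and 71.1 in ctrl. All treated libraries lay above ctrl in the Ccl17 arm, whereas in the Cd209a arm aPDL1 lay below ctrl, which has 14 cells there. The 11 compared inhibitory genes had a median of -0.16 for 2DG over ctrl (2 higher, 0 lower) and -0.12 for aPDL1 over ctrl (2 higher, 2 lower). Of all genes 9.75% were higher and 12.4% lower for 2DG over ctrl, and 13% and 13.9% for aPDL1 over ctrl.

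Pvr, a ligand of TIGIT and CD226, was at 94.5 CPM in the combination, 48.7 with aPDL1, 50.3 with 2DG and 28.4 in ctrl. Cd200r1, an inhibitory receptor, was at 25.2 CPM in the combination, 45.9 with aPDL1, 66.9 with 2DG and 91.1 in ctrl, lowest in the combination, as was Pilra, at 15.5 CPM in the combination, 20.7 with aPDL1, 44.8 with 2DG and 61.5 in ctrl. Lilrb4a, an inhibitory immunoglobulin-like receptor, was at 312 CPM in the combination, 267 with aPDL1, 255 with 2DG and 374 in ctrl. Sirpa, the receptor for CD47 and a cDC2 marker, was at 195 CPM in the combination, 244 with aPDL1, 221 with 2DG and 273 in ctrl. Costimulatory genes had medians of -0.08 for 2DG over ctrl (0 of 9 higher, 2 lower), 0.21 for the combination over aPDL1 (2 higher, 1 lower), -0.01 for aPDL1 over ctrl (2 higher, 2 lower) and 0.36 for the combination over 2DG (3 higher, 0 lower). Over the pairs 7.02% to 13% of all genes were higher and 10.3% to 13.9% lower. Cd40, which receives T cell help, was at 107 CPM in the combination, 92.3 with aPDL1, 63.2 with 2DG and 44.4 in ctrl. Cd86 was at 1142 CPM in the combination, 798 with aPDL1, 872 with 2DG and 762 in ctrl. Cd80, like Cd86 a ligand of CD28, was at 343 CPM in the combination, 319.9 with aPDL1, 317 with 2DG and 364 in ctrl. Cd83, a maturation marker, was at 752 CPM in the combination, 526 with aPDL1, 430.1 with 2DG and 767 in ctrl. Cd40 and Cd86 were highest in the combination, and Cd80 and Cd83 differed little between the combination and ctrl. Tnfsf9 was at 57.8 CPM in the combination, 31.3 with aPDL1, 46.6 with 2DG and 71.5 in ctrl. Icam1 was at 126 CPM in the combination, 111 with aPDL1, 66.9 with 2DG and 70.96 in ctrl. Icosl was at 37.8 CPM in the combination, 62.6 with aPDL1, 52.1 with 2DG and 54.99 in ctrl. Cd48 was at 121 CPM in the combination, 72.2 with aPDL1, 117 with 2DG and 121 in ctrl.

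The C-type lectins, whose sugar binding is near the theme of the study, had members in both directions, with medians of -0.19 for 2DG over ctrl (3 of 12 higher, 5 lower), 0.0976 for the combination over aPDL1 (3 of 11 higher, 1 lower), -0.52 for aPDL1 over ctrl (5 of 13 higher, 5 lower) and 0.52 for the combination over 2DG (5 of 11 higher, 3 lower). The shares of all genes in the pairs were 7.02% to 13% higher and 10.3% to 13.9% lower. Cd209d, a relative of Cd209a, was at 80.2 CPM in the combination, 91.7 with aPDL1, 58.9 with 2DG and 10.6 in ctrl. Mrc1, the mannose receptor, was at 325 CPM in the combination, 396 with aPDL1, 154 with 2DG and 144 in ctrl. Clec4d and Clec4e, receptors of bacterial and damage-linked glycolipids, were highest in ctrl. Clec4d was at 34.9 CPM in the combination, 16.8 with aPDL1, 18.4 with 2DG and 125 in ctrl. Clec4e was at 28.1 CPM in the combination, 19.02 with aPDL1, 11.04 with 2DG and 83.4 in ctrl. Without the cells of high S100a8 plus S100a9 Clec4e was at 26.5 CPM in the combination, 19 with aPDL1, 2.47 with 2DG and 36.6 in ctrl, and the ctrl level of Clec4d was 48.8 CPM. Clec4n, Dectin-2, was at 89.3 CPM in the combination, 133 with aPDL1, 164 with 2DG and 190.4 in ctrl, lowest in the combination. Clec4a3 was at 85.3 CPM in the combination, 51.5 with aPDL1, 44.8 with 2DG and 24.2 in ctrl, highest in the combination. Clec4b1 was at 32.6 CPM in the combination, 19.02 with aPDL1, 22.7 with 2DG and 54.99 in ctrl.

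Of 12 compared cytosolic heat shock genes 5 were at least 1.5-fold lower in each pair, and the list had medians of -0.22 for 2DG over ctrl (0 of 12 higher, 5 lower), -0.17 for the combination over aPDL1 (0 higher, 5 lower), -0.36 for aPDL1 over ctrl (1 higher, 5 lower) and -0.304 for the combination over 2DG (0 higher, 5 lower). Over the pairs 10.3% to 13.9% of all genes were lower and 7.02% to 13% higher. Hspa1a, an inducible HSP70, was at 113 CPM in the combination, 259 with aPDL1, 336 with 2DG and 669 in ctrl. Hspa1b, a near-identical copy that can share reads with it, was at 91.03 CPM in the combination, 285 with aPDL1, 304 with 2DG and 748 in ctrl. Hspa8, the constitutive form, was higher with treatment, at 1827 CPM in the combination, 1981 with aPDL1, 1436 with 2DG and 1164 in ctrl. Immediate early genes, which respond within minutes to handling and to signals, had medians of -0.39 for 2DG over ctrl, 0.01 for the combination over aPDL1, -0.07 for aPDL1 over ctrl and 0.73 for the combination over 2DG, and their part in the other results was not tested. Junb, of the AP-1 family, was at 1656 CPM in the combination, 868 with aPDL1, 884 with 2DG and 1014 in ctrl. Fos was at 1544 CPM in the combination, 1053 with aPDL1, 814 with 2DG and 937 in ctrl, both highest in the combination.

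Genes past 1.5-fold the same way in both 2DG pairs numbered 59 upward and 82 downward, and the first 8 in each direction, ranked by the smaller of their 2 ratios, are named. For 2DG over ctrl 9.75% of 5325 compared genes were higher and 12.4% lower. For the combination over aPDL1 it was 7.02% and 10.3% of 5316. Whether the joint counts exceed what such shares would give was not tested. Fabp5, a fatty acid-binding protein gene, was at 919.5 CPM in the combination, 295 with aPDL1, 498 with 2DG and 121 in ctrl, with log2 ratios of 2.04 (1.82 to 2.27) for 2DG over ctrl and 1.64 (1.496 to 1.78) for the combination over aPDL1. It was at 1085 CPM in the combination, 328 with aPDL1, 519.6 with 2DG and 107 in ctrl in the Cd209a arm. In the Ccl17 arm it was at 287 CPM in the combination, 343 with aPDL1, 809 with 2DG and 192 in ctrl, and there the combination was not above aPDL1. In C1q macrophages Fabp5 was at 1567 CPM in the combination, 616 with aPDL1, 721 with 2DG and 221 in ctrl. In migratory dendritic cells it was at 4161 CPM in the combination against 1976 to 3710 CPM in the other libraries. In cDC1 the combination was lowest, at 13.5 CPM against 18.5 to 69.4 CPM. Dusp2, a phosphatase of MAP kinases, was at 184 CPM in the combination, 59.8 with aPDL1, 50.3 with 2DG and 16.6 in ctrl, with ctrl lowest. Tldc2 was at 75.6 CPM in the combination, 27.96 with aPDL1, 32.5 with 2DG and 2.96 in ctrl. Ly6c2 was at 154 CPM in the combination, 57.6 with aPDL1, 52.8 with 2DG and 7.096 in ctrl. At 3000 UMIs a cell Ly6c2 was found in 21.1% of combination cells (15.7 to 27.4), 14.4% with aPDL1 (9.6 to 20.3), 10.9% with 2DG (6.35 to 17.1) and 0.917% in ctrl (0.0232 to 5.01), against 28.4% in the combination, 24.7% with aPDL1, 17.2% with 2DG and 2.42% in ctrl at full depth. In C1q macrophages, which are not chosen by Ly6c2, the thinned shares were 12.9% in the combination, 9.95% with aPDL1, 6.45% with 2DG and 7.36% in ctrl. Ifit2, which binds viral RNA, was at 87.6 CPM in the combination, 39.7 with aPDL1, 82.8 with 2DG and 32.5 in ctrl. Ifi213 was at 84.2 CPM in the combination, 35.8 with aPDL1, 34.4 with 2DG and 11.8 in ctrl. Gm26827 and Ccl5 completed the upward group. When cells of 2 or more UMIs of Fcgr1 plus Ly6c2 were left out, the combination over aPDL1 turned to -0.311 for Ly6c2, one of the genes that chose those cells.

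Slc15a2, a transporter of short peptides, led the downward group, at 7.44 CPM in the combination, 95.6 with aPDL1, 12.3 with 2DG and 65.6 in ctrl, with ratios of -2.39 (-3.19 to -1.72) for 2DG over ctrl and -3.63 (-4.62 to -2.87) for the combination over aPDL1. St6gal1, the sialyltransferase that caps N-glycans with alpha 2,6-linked sialic acid, was at 20.04 CPM in the combination, 59.3 with aPDL1, 30.7 with 2DG and 119 in ctrl, with ratios of -1.95 (-2.44 to -1.51) for 2DG over ctrl and -1.55 (-2.16 to -1.001) for the combination over aPDL1. Both libraries with 2DG were lower than their partners without it. Arg1, arginase, was at 105 CPM in the combination, 310.4 with aPDL1, 32.5 with 2DG and 688 in ctrl, but without cells of 2 or more UMIs of Fcgr1 plus Ly6c2 the combination over 2DG was -1.3. Dcstamp, a gene of cell fusion in osteoclasts and macrophages, was at 25.8 CPM in the combination, 61.5 with aPDL1, 107 with 2DG and 271 in ctrl. Within the Cd209a arm it was at 0.715 CPM in the combination, 0 with aPDL1, 25.3 with 2DG and 35.5 in ctrl. Among Ccl17-arm cells, where each library was higher, it was at 177 CPM in the combination, 109 with aPDL1, 185 with 2DG and 213 in ctrl. Tnf, Egln3, Hspa1b and Slc7a2 completed the group.

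Genes past 1.5-fold the same way in both aPDL1 pairs numbered 132 upward and 171 downward. For aPDL1 over ctrl 13% of 5510 compared genes were higher and 13.9% lower. For the combination over 2DG it was 9.45% and 10.7% of 5183, and the joint counts were not tested against these shares. The upward group was led by Lyz2, Dusp2, Gpr65, Selenop, Itga1, Ly6c2, Ccl5 and Timp1. Gpr65, a receptor that senses acid, was at 54.96 CPM in the combination, 31.9 with aPDL1, 16.6 with 2DG and 8.87 in ctrl. Selenop, selenoprotein P, was at 56.7 CPM in the combination, 49.8 with aPDL1, 19.02 with 2DG and 13.01 in ctrl. Itga1, an integrin subunit for collagen, was at 32.1 CPM in the combination, 33.6 with aPDL1, 9.82 with 2DG and 11.2 in ctrl. Timp1, an inhibitor of metalloproteinases, was at 126 CPM in the combination, 68.8 with aPDL1, 36.8 with 2DG and 27.2 in ctrl. In these 4 genes the libraries with aPDL1 lay above their partners without it. Without cells of 2 or more UMIs of Fcgr1 plus Ly6c2, aPDL1 over ctrl turned to -0.177 for Ccl5.

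The downward group was Stmn1, Pclaf, Hist1h3e, Hist1h2ab, Dcstamp, Hist1h3c, Rad51b and Gpr82. Pclaf, which binds PCNA, was at 12.6 CPM in the combination, 15.1 with aPDL1, 61.97 with 2DG and 110 in ctrl. Rad51b, of homologous recombination, was at 10.9 CPM in the combination, 36.9 with aPDL1, 84.1 with 2DG and 142 in ctrl, with ratios of -1.94 (-2.36 to -1.55) for aPDL1 over ctrl and -2.92 (-3.73 to -2.25) for the combination over 2DG. The histone gene Hist1h2ab was at 8.02 CPM in the combination, 15.7 with aPDL1, 36.2 with 2DG and 68 in ctrl, and the histone copies resemble each other closely enough to share reads. Gpr82, an orphan receptor, was at 8.02 CPM in the combination, 6.15 with aPDL1, 30.7 with 2DG and 33.1 in ctrl.

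Beyond the values of the other libraries by 1.5-fold or more, the combination was higher in 148 genes and lower in 188. For scale, 5316 genes were compared for the combination over aPDL1 and 5183 for the combination over 2DG, and these counts were not tested. Saa3, Gzmb and Gzma led upward beside P4htm and Spata32, but a single cell held 93.02% of the Saa3 UMIs, 85.8% of Gzmb and 56.7% of Gzma in the combination. With scored doublets removed the combination over aPDL1 was -0.0962 for Saa3 and -1.09 for Gzmb. Spata32 was at 35.5 CPM in the combination, 4.47 with aPDL1, 7.98 with 2DG and 1.18 in ctrl, in 32 cells in the combination, 7 with aPDL1, 10 with 2DG and 2 in ctrl. P4htm, a transmembrane prolyl hydroxylase, was at 28.6 CPM in the combination, 4.47 with aPDL1, 2.45 with 2DG and 1.77 in ctrl. Downward, Mmp12, macrophage elastase, was at 11.4 CPM in the combination, 132 with aPDL1, 167 with 2DG and 122 in ctrl. Itgae, the CD103 integrin chain, was at 10.9 CPM in the combination, 36.9 with aPDL1, 59.5 with 2DG and 105 in ctrl. Apbb2, an adaptor of amyloid precursor protein, was at 6.87 CPM in the combination, 43.1 with aPDL1, 47.9 with 2DG and 98.2 in ctrl. Nol4l was at 8.02 CPM in the combination, 30.8 with aPDL1, 31.9 with 2DG and 30.2 in ctrl, and Rad51b is given above.

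Other gates of the same libraries shared some of these group values. For the type I interferon list C1q macrophages had medians of 0.53 for 2DG over ctrl, 0.38 for the combination over aPDL1, 0.55 for aPDL1 over ctrl and 0.35 for the combination over 2DG, and cDC1 had 0.02 for 2DG over ctrl, 0.38 for the combination over aPDL1, -0.09 for aPDL1 over ctrl and 0.27 for the combination over 2DG. The treated-over-ctrl medians of the cDC2 gate, 1.02 and 0.945, were larger than either, and the difference between gates was not tested. Medians of this list in migratory dendritic cells and Ly6c2 monocytes are not given here. For chemokines Ly6c2 monocytes had -0.84 for 2DG over ctrl, 1.03 for the combination over aPDL1, -0.93 for aPDL1 over ctrl and 1.32 for the combination over 2DG, with the signs seen in the cDC2 gate. All genes had medians of -0.09 to 0.16 in these gates.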

How the data were processed

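The authors deposited unnormalized UMI counts for each gene in each barcode, from a 10x 3' droplet kit, per the labels' protocols. The file headers name Cell Ranger 7.0.0 and the submitters' processing notes Cell Ranger 3.1.0 with mm10, so the version that made the counts is not settled here. The sources used here do not say whether intronic reads entered. The matrices held 32285 genes, 78 symbols belonged to more than 1 identifier, and Aldoa and Ddit3, which are among those, and Mx1, Mx2, Clec6a and Clec7a were not analysed here.

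The gate was applied per cell, UMIs of gated cells were summed per library and divided by their total to give CPM, and a ratio used UMIs plus 0.5. Levels carry exact Poisson intervals, ratios exact conditional binomial ones, and shares exact Clopper-Pearson ones, each at 95%. A gene counted as past the size rule at 1.5-fold with 50 or more UMIs in the higher library (20 within an arm). Doublets were not removed from the gate, and an alternative took out the highest Scrublet scores (scanpy 1.11.5) at 0.8% per 1000 barcodes, which held 13 of the gated cells in the combination, 12 with aPDL1, 6 with 2DG and 9 in ctrl. Other alternatives were the scaling (edgeR 4.0.16 TMM or median-of-ratios size factors), thinning to 3000 UMIs, and changes of each gate and cell filter. Leaving out cells of 20 or more S100a8 plus S100a9 UMIs, leaving out cells under 3000 UMIs, leaving out cells of 2 or more UMIs of Fcgr1 plus Ly6c2, and the arms were chosen after seeing the data. A wider version of that monocyte criterion is not reported here.

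Genes were named by size. Up to 8 per direction passed 1.5-fold the same way in both 2DG pairs or both aPDL1 pairs, up to 5 per direction put the combination 1.5-fold outside the other libraries, 15 had the largest ratio over other kept cells, and each list described shows its extreme members. Members and the 39 lists were chosen with earlier results of these data known. The code was tested on simulated counts with known changes.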

Additional observations from a re-analysis of the deposited data

Results flagged for a closer look

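The cytokine list had a median log2 ratio of -1.41 for 2DG over ctrl and 1.05 for the combination over aPDL1, so that the value for 2DG had opposite signs without and with aPDL1. The same list gave -0.785 for aPDL1 over ctrl and 1.43 for the combination over 2DG. The chemokine list gave -1.23 for aPDL1 over ctrl and 1.17 for the combination over 2DG. These were singled out because the same contrast had medians of opposite sign in its 2 pairs, each past 1.5-fold. The cytokine medians rest on 6 genes over ctrl and 5 in the other pairs. For the combination over aPDL1 the cytokine median fell under 1.5-fold without cells of Fcgr1 plus Ly6c2 (0.338) or of high S100a8 plus S100a9 (0.425). With Cd209a alone the chemokine median for aPDL1 over ctrl did too (-0.266). Chemokines for 2DG (-1.68 over ctrl and 0.524 for the combination over aPDL1) and hypoxia genes for aPDL1 (-0.952 over ctrl and 0.517 for the combination over 2DG) had opposite signs too, with 1 median under 1.5-fold. The difference was not tested, since each group is 1 library. Neutrophil markers summed to 85.9 CPM in the combination, 44.7 with aPDL1, 79.2 with 2DG and 2523 in ctrl, and their part in these medians was not tested.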

How the results depend on the processing

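No paired analysis was possible because each group has 1 library and the labels carry no replicate numbers. Among alternatives 26 of the shares moved by less than their interval and 14 by more, 90 of the counts of genes stayed within 1.5 times and 14 did not, and 1279 list medians stayed close while 17 moved. Of the log2 ratios of named genes, 1374 moved little, 152 moved and 14 changed sign. Median-of-ratios size factors moved the median of all genes by 0.103 for the combination over aPDL1 and 0.115 for the combination over 2DG, TMM by 0.0962 and 0.0959, and both by under 0.01 for the other pairs. Where no value is said to be tested, the cause of a move was not tested.

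Without cells of 2 or more UMIs of Fcgr1 plus Ly6c2, chosen after seeing the data, the gate held 1.399% of kept cells in the combination, 1.349% with aPDL1, 1.372% with 2DG and 1.21% in ctrl, with overlapping intervals. Of cells high in class II genes it held 6.113%, 6.324%, 5.632% and 8.196% of those libraries, as given above. With Cd209a alone at 2 or more it held 1.98% in the combination, 1.46% with aPDL1, 1.41% with 2DG and 0.66% in ctrl. Thinning to 3000 UMIs before the gate gave 1.866% in the combination and 1.368% in ctrl, again with overlapping intervals, 3 or more UMIs of Cd209a plus Ccl17 gave 1.714% with aPDL1, leaving out cells under 3000 UMIs gave 2.353% with aPDL1, and leaving out cells of high S100a8 plus S100a9 gave 1.874% in ctrl.

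With 100 or more UMIs, which tests fewer genes, 278 were higher and 376 lower for 2DG over ctrl, 281 lower for the combination over aPDL1, 434 higher and 442 lower for aPDL1 over ctrl, and 259 lower for the combination over 2DG. With no minimum, which tests more, 3348 were higher and 3978 lower for 2DG over ctrl, 3081 and 3965 for the combination over aPDL1, 3617 and 4137 for aPDL1 over ctrl, and 3249 and 4187 for the combination over 2DG.

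With each cell at equal weight neutrophil markers had medians of -4.41 for 2DG over ctrl and -4.51 for aPDL1 over ctrl, and cytokines -0.818 for 2DG over ctrl. With Cd209a alone cytokines were at -0.758 for 2DG over ctrl, chemokines at -0.266 for aPDL1 over ctrl, migratory markers at -0.65 for the combination over aPDL1, and IL-4 and STAT6 genes at 0.707 for 2DG over ctrl and 0.774 for aPDL1 over ctrl. Without cells of Fcgr1 plus Ly6c2 monocyte markers were at -0.367 and chemokine receptors at -0.37 for 2DG over ctrl, cytokines at 0.338 and chemokines at -0.0615 for the combination over aPDL1, and IL-4 and STAT6 genes at 0.841 and cell cycle genes at -2.55 for aPDL1 over ctrl. With doublets removed neutrophil markers were at -6.97 for 2DG over ctrl and cell cycle genes at -2.38 for aPDL1 over ctrl. Without cells of high S100a8 plus S100a9 cytokines were at 0.425 for the combination over aPDL1.

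Signs turned without cells of Fcgr1 plus Ly6c2 for the combination over aPDL1 in Ly6c2 (-0.311), for 2DG over ctrl in Lyz2 (-0.198), for aPDL1 over ctrl in Ccl5 (-0.177), and for the combination over 2DG in Arg1 (-1.3). With Cd209a alone they turned for 2DG over ctrl in Stmn1 (0.205) and Hist1h3c (0.037). Saa3 turned for the combination over aPDL1 at -0.725 with Cd209a alone, -1.36 without cells of Fcgr1 plus Ly6c2 and -0.0962 without doublets, and for the combination over 2DG at -0.675, -1.16 and -0.158 under the same changes. Gzmb turned without doublets at -1.09 for the combination over aPDL1 and -0.0136 for the combination over 2DG. Of these changes, leaving out cells that hold Ly6c2 UMIs acts on Ly6c2 by its own construction.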
